A study of Rattus norvegicus with 40 samples.

Results

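The galectin genes describe a family of sugar-binding proteins and their partner, followed here through chemically induced liver carcinogenesis in the rat. The 7 members were Lgals1, Lgals3, Lgals3bp, Lgals4, Lgals5, Lgals8 and Lgals9, taken by symbol from a table of 17337 genes. DEN, N-nitrosodiethylamine, is a carcinogen activated in hepatocytes. Male Fischer 344 rats, aged 7 weeks at the start, received 50 mg/kg DEN into the peritoneum every week. Livers were collected after 8 weeks of DEN, after 14 weeks of DEN, or 20 weeks after the start, when the rats had been off DEN for 6 weeks. Each time had its own untreated group, labelled no DEN and matched in age, and every group held 4 rats. Non-tumoral (NT) liver was sequenced at all 3 times, and at 14 and 20 weeks 2 tumor nodules of each DEN rat were sequenced as well. All animals were males of 1 inbred strain, no DEN rat gave a nodule, and whole pieces of tissue were sequenced.

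Galectins bind galactose-containing sugar chains through a conserved carbohydrate recognition domain and leave the cell without a classical signal peptide. Outside the cell they crosslink glycoproteins and tune adhesion, matrix deposition and the survival of T cells. In the liver, galectin-1 and galectin-3 are known from activated stellate cells, macrophages and tumor cells, whereas galectin-9 is a ligand of immune checkpoint receptors, one of the routes by which tumors are thought to escape T cells. Lgals3bp encodes a secreted glycoprotein that is itself no galectin but a ligand for several of them.

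Reads counted per library ranged from 20528515 to 39355849 pairs, apart from 1 NT library at 20 weeks (rat H26) with 160622633. Levels are given as CPM, the counts of a gene scaled to a common library total with TMM factors, which correct for libraries dominated by a few genes. CPM is not divided by transcript length, so levels were compared between groups and not between genes. A gene was called when its log2 fold change was at least 0.5 in size and its Benjamini-Hochberg adjusted p from the quasi-likelihood test of edgeR was at most 0.05. Counts of both nodules of a rat were added, so n is 4 rats in every group and the error is the SD between rats. In pieces of tissue, fewer cells of a type and less RNA per cell cannot be told apart. The tissue carried its defining hepatocyte markers in every group (8 of 8 above 0, Alb among them), and their summed level under DEN is given with the other cell markers.

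The family divided by direction. Lgals1, Lgals3 and Lgals3bp rose in NT liver at 8, 14 and 20 weeks and in the nodules at 14 and 20 weeks, each against no DEN liver of the same week. Lgals9 fell in NT liver at 14 and 20 weeks and in the nodules at both times, but was not called at 8 weeks. Lgals8 and Lgals5 were not called in any of these comparisons, and Lgals4 was too low for the test. At 8 weeks 3 of the 6 tested members were higher in NT liver, where 16.5% of all tested genes were called higher, and none was lower, where 5.21% of genes were. At 14 weeks NT liver had 3 members higher and 1 lower against a background of 22.8% and 9.85% of genes. At 20 weeks the counts were again 3 and 1, and the background was 14.3% and 3.82%. In nodules 3 members were higher and 1 lower at each time, with 23.9% and 15.2% of all genes called in those directions at 14 weeks and 23.6% and 15.2% at 20 weeks. These comparisons share the no DEN rats of a week, so the NT and nodule columns of a week are not independent of each other.

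**Figure D1:**
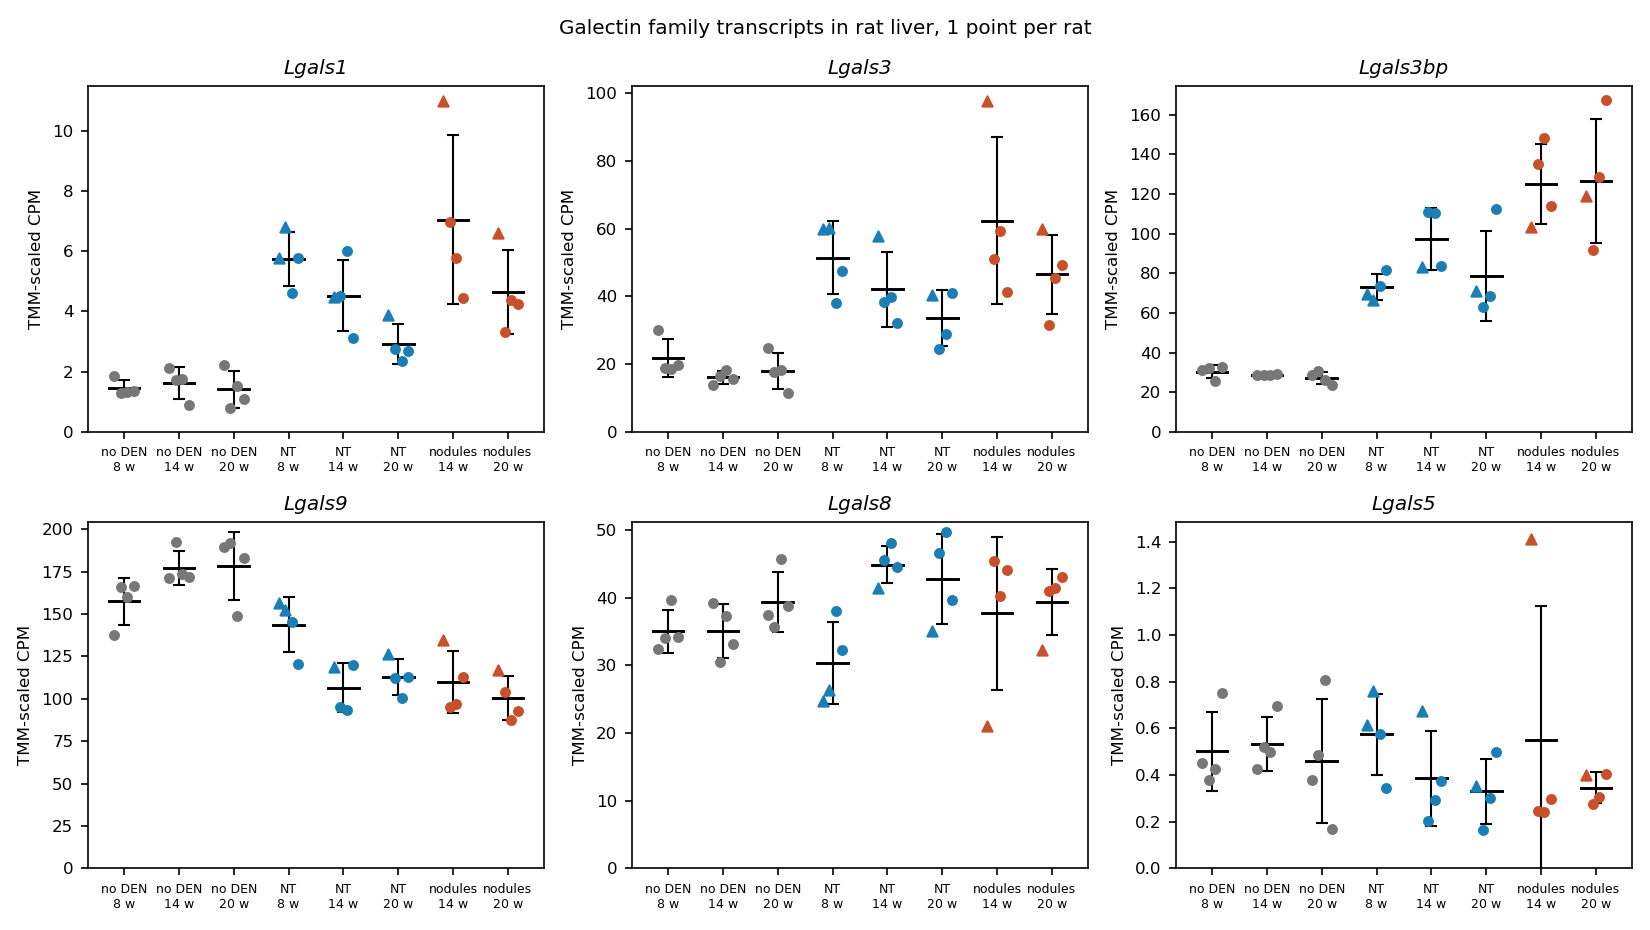
TMM-scaled CPM (y axis, linear from 0) of 6 members in the 8 groups (x axis; grey no DEN, blue NT, orange nodules of DEN rats), with 1 point per rat, the mean as a horizontal line and bars of 1 SD, those of Lgals5 in 14-week nodules running below 0. Triangles mark rats numbered F; Lgals1 and Lgals3bp lay above every no DEN rat of the same week in all DEN groups, and Lgals9 below it from 14 weeks on.

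Lgals1, which encodes galectin-1, a dimer with a single kind of binding domain that is abundant in fibroblasts and activated stellate cells, rose at every time. In no DEN liver its level was 1.30, 1.31, 1.34 and 1.85 CPM in the 4 rats of 8 weeks, 0.894, 1.72, 1.74 and 2.12 CPM at 14 weeks and 0.807, 1.10, 1.52 and 2.22 CPM at 20 weeks. NT liver held 4.61, 5.77, 5.78 and 6.80 CPM at 8 weeks, 3.10, 4.48, 4.50 and 5.99 CPM at 14 weeks and 2.35, 2.67, 2.75 and 3.87 CPM at 20 weeks. Every DEN rat was thus above every no DEN rat of its week, and the means were 5.74 ± 0.895, 4.52 ± 1.18 and 2.91 ± 0.663 CPM in the order of the 3 times, with overlap between neighbouring groups. The log2 fold change was 1.98 (SE 0.18, adjusted p = 3.2e-05) at 8 weeks, or 3.93-fold. It was 1.51 (SE 0.26, adjusted p = 0.000716) at 14 weeks and 1.04 (SE 0.29, adjusted p = 0.0216) at 20 weeks. The change of this effect over time was not called, from 8 to 14 weeks (-0.46, adjusted p = 0.392) or from 14 to 20 weeks (-0.46, adjusted p = 0.597). Nodules held 4.45, 5.78, 6.98 and 10.97 CPM at 14 weeks and 3.30, 4.25, 4.36 and 6.59 CPM at 20 weeks. Against no DEN liver the nodule effect was 2.10 (SE 0.34, adjusted p = 0.000944) and 1.69 (SE 0.31, adjusted p = 0.00155).

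Lgals3 encodes galectin-3, the only chimera-type galectin, whose long tail lets it form larger assemblies, and which is known from macrophages and cholangiocytes. It rose in the same 5 comparisons. No DEN livers held 18.5, 18.9, 19.9 and 30.2 CPM at 8 weeks, 13.9, 15.6, 16.6 and 18.2 CPM at 14 weeks and 11.4, 17.6, 18.1 and 24.8 CPM at 20 weeks. NT livers held 37.9, 47.5, 60.05 and 60.1 CPM, then 32.1, 38.4, 39.8 and 57.9 CPM, then 24.4, 28.8, 40.4 and 41.0 CPM. At 8 and 14 weeks the groups did not overlap, whereas at 20 weeks the lowest NT rat was just under the highest no DEN rat. The log2 fold changes of NT liver were 1.23 (SE 0.19, adjusted p = 0.00107), 1.42 (SE 0.18, adjusted p = 0.000168) and 0.92 (SE 0.25, adjusted p = 0.0261). In nodules the values were 41.3, 51.1, 59.4 and 97.8 CPM at 14 weeks and 31.6, 45.5, 49.2 and 59.9 CPM at 20 weeks, and all lay above the no DEN rats. The nodule effect was 1.94 (SE 0.25, adjusted p = 0.000273) at 14 weeks and 1.35 (SE 0.23, adjusted p = 0.00113) at 20 weeks.

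The calls of Lgals1 and Lgals3 in 20-week NT liver rested on single rats. Without rat F03 the log2 fold changes were 0.88 (adjusted p = 0.0515) for Lgals1 and 0.83 (adjusted p = 0.0597) for Lgals3. Without rat H14, a no DEN rat, they were 0.86 (adjusted p = 0.056) and 0.91 (adjusted p = 0.0674). Lgals1 also missed the threshold without H16 (0.91, adjusted p = 0.0731), and Lgals3 without H15 (0.91, adjusted p = 0.0623) or H28 (0.80, adjusted p = 0.0597). At the other times, and in nodules, both genes stayed called whichever rat was left out.

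Lgals3bp, whose product binds galectins, integrins and matrix proteins and is also known as an interferon-induced gene, rose in the same comparisons. No DEN livers held 25.6, 31.1, 32.2 and 32.6 CPM at 8 weeks, 28.5, 28.5, 28.8 and 29.2 CPM at 14 weeks and 23.5, 26.2, 28.4 and 30.5 CPM at 20 weeks. NT livers held 66.7, 69.4, 73.6 and 81.7 CPM at 8 weeks, 83.3, 83.8, 110.2 and 111 CPM at 14 weeks and 62.9, 68.7, 70.8 and 112 CPM at 20 weeks. No DEN rat came near any DEN rat, the closest pair being 32.6 and 62.9 CPM. The log2 fold changes were 1.26 (SE 0.10, adjusted p = 1.48e-05), 1.79 (SE 0.10, adjusted p = 1.63e-06) and 1.56 (SE 0.19, adjusted p = 0.000739). In nodules the level reached 104, 114, 135 and 148 CPM at 14 weeks and 91.7, 119, 128 and 167 CPM at 20 weeks, with effects of 2.10 (SE 0.12, adjusted p = 5.13e-06) and 2.20 (SE 0.17, adjusted p = 2.01e-05), or 4.59-fold in the latter. The same gene stayed called under each alternative run for these 5 comparisons.

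Lgals9 moved the other way. It encodes galectin-9, which carries a pair of different binding domains and is described as a ligand of TIM-3, the product of Havcr2. No DEN livers held 137, 159.8, 166 and 166 CPM at 8 weeks, 171, 172, 173 and 192 CPM at 14 weeks and 149, 183, 189.7 and 192 CPM at 20 weeks. NT livers held 120.3, 145, 153 and 157 CPM at 8 weeks, which overlapped the controls, and the difference was not called (log2 fold change -0.14, SE 0.10, adjusted p = 0.304). At 14 weeks NT livers held 93.2, 94.8, 119 and 119.9 CPM and at 20 weeks 100.5, 112, 113 and 126 CPM, so that no DEN-treated rat reached the lowest control. The log2 fold change was -0.70 (SE 0.10, adjusted p = 0.000167) at 14 weeks and -0.64 (SE 0.10, adjusted p = 0.00179) at 20 weeks. Nodules held 95.2, 97.0, 113 and 135 CPM at 14 weeks and 87.5, 93.1, 104 and 117 CPM at 20 weeks. Their effects were -0.71 (SE 0.12, adjusted p = 0.00131) and -0.85 (SE 0.13, adjusted p = 0.000555). Of the alternatives run for these 4 comparisons, the stricter threshold (log2 fold change of at least 1, adjusted p of at most 0.01) dropped the calls, because the effect is smaller than 1.

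The effect of DEN on Lgals9 in NT liver differed between 8 and 14 weeks by a test of the difference itself. The interaction of treatment and week was -0.56 (SE 0.14, adjusted p = 0.0228), where 8.96% of all genes passed that test. The controls enter this test as well, and their mean was 157 ± 13.7 CPM at 8 weeks and 177 ± 10.1 CPM at 14 weeks without overlap, a difference that did not pass the test (0.16, adjusted p = 0.491). Lgals3bp (0.53, SE 0.15, adjusted p = 0.0358) and Lgals8 (0.60, SE 0.16, adjusted p = 0.0314) also passed the interaction test, in the upward direction. From 14 to 20 weeks no member passed, in NT liver (0.738% of genes passed) or in nodules (0.0862%), and no member had an unadjusted p under 0.05 in either. The calls from 8 to 14 weeks were fragile. Without F09 or H10 that of Lgals9 was lost (-0.52 in both, adjusted p = 0.0509 and 0.0515), and with all 8 groups in 1 fit it was -0.60 with an adjusted p of 0.06.

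**Figure D2:**
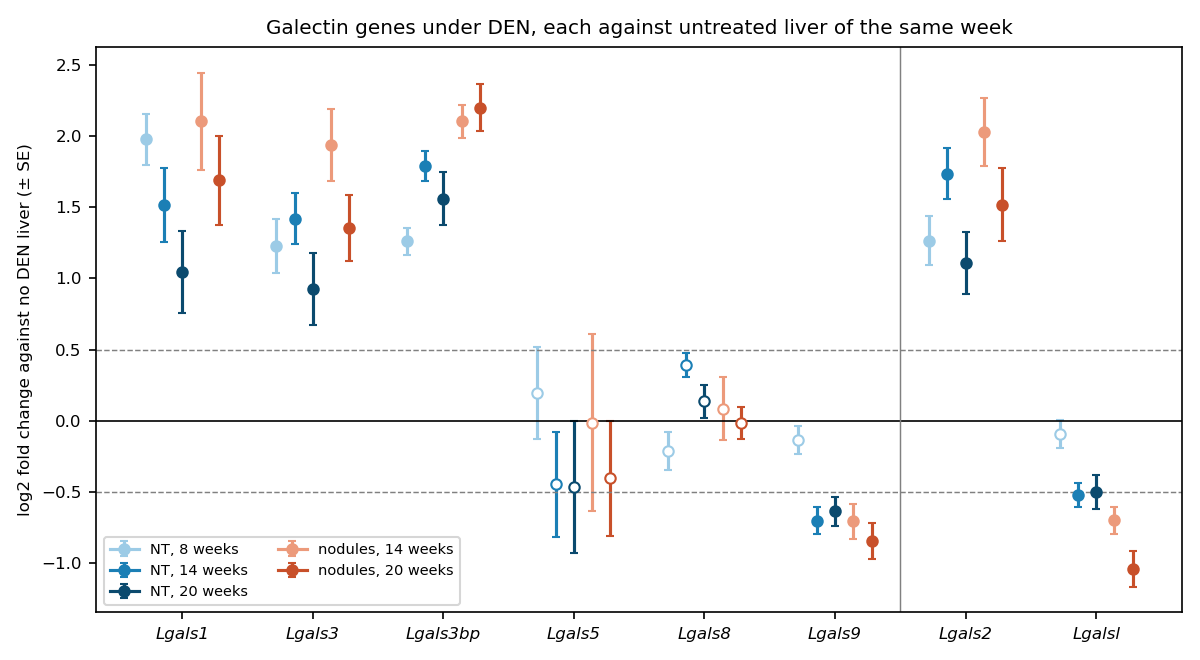
Log2 fold change with SE (y axis) of 6 members and, right of the vertical line, 2 other galectin genes against no DEN liver of the same week, in NT liver (blues) and nodules (oranges), with 4 rats in each group. Filled points were called, open points were not, and dashed lines mark 0.5; the 3 genes at the left lay between 0.92 and 2.20, while Lgals9 lay between -0.14 and -0.85.

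Lgals8 encodes galectin-8, which also carries a pair of binding domains and senses damaged lysosomes. No DEN livers ranged from 30.4 to 45.7 CPM over the 3 times. In NT liver at 8 weeks the 4 rats held 24.7, 26.4, 32.3 and 38.1 CPM and the difference was not called (-0.21, SE 0.13, adjusted p = 0.245). At 14 weeks NT livers held 41.4, 44.6, 45.6 and 48.0 CPM against 30.4, 33.2, 37.3 and 39.3 CPM in no DEN liver. These groups did not overlap and the adjusted p was 0.00263, but the log2 fold change of 0.39 (SE 0.08) was under the size needed for a call. At 20 weeks the difference was 0.14 (adjusted p = 0.408) in NT liver and -0.02 (adjusted p = 0.902) in nodules, and in 14-week nodules it was 0.08 (SE 0.22, adjusted p = 0.768). In that group the nodules of F06 held 21.1 CPM and those of the other 3 rats 40.2, 44.1 and 45.4 CPM. The libraries of nodule 1 of F06 and of F03, lowest of all 40 in Lgals8 (16.3 and 25.2 CPM, scaled as single libraries), also had the highest shares of pairs not assigned to a gene, 45.4% and 41.3% against at most 38.5% in the others. The part of this in the Lgals8 values was not tested.

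Lgals5, the rat gene for galectin-5, a protein known from reticulocytes and red cells, was rare. Its counts ranged from 4 to 82 per rat and tissue, and its group means from 0.330 to 0.574 CPM. No comparison was called. In 14-week nodules rat F06 held 1.41 CPM, from 82 counts, and the other rats held 0.240, 0.247 and 0.299 CPM. As single libraries nodule 1 of F06 held 1.98 CPM (51 counts) and nodule 2 held 1.02 CPM (31 counts). Without F06 the difference from no DEN liver was -1.02 (adjusted p = 0.00768) in nodules and -0.87 (adjusted p = 0.0388) in NT liver of that week, and both then passed, whereas with all rats they were -0.02 (adjusted p = 0.986) and -0.45 (adjusted p = 0.326). The summed level of 9 erythroid marker genes, the globins among them, was 796 CPM in the same F06 nodules and 110, 157 and 176 CPM in the other rats. In NT liver of 14 weeks F06 was again highest for both, with 0.674 CPM of Lgals5 and 327 CPM of erythroid markers, against at most 0.375 CPM and 187 CPM in the other rats. No DEN livers of that week held 0.424 to 0.695 CPM of Lgals5 and 276 to 349 CPM of erythroid markers. The NT liver of F06 thus lay within the range of untreated rats for both, and those of the other DEN rats lay below it. The part of red cell RNA in the Lgals5 values was not tested.

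Lgals4, which encodes an intestinal and epithelial galectin, held 0 to 22 counts and was removed by the filter on low counts in all 9 comparisons of groups. It was at 0 counts in 3 of 4 no DEN rats at 14 weeks and again at 20 weeks. In 14-week nodules the level was 0.173 ± 0.142 CPM against 0.010 ± 0.020 CPM in no DEN liver. An exact two-sided permutation test gave p = 0.029, the smallest that 4 against 4 rats allow, and 0.171 after Benjamini-Hochberg adjustment over 9 tests. The other comparisons gave exact permutation p values of at least 0.0571, and after adjustment no difference in Lgals4 was detectable at this depth. The libraries held no molecular identifiers, so counts this low carry amplification error on top of counting error.

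Other galectin genes in the table were read the same way. Lgals2, which encodes a small dimeric galectin, rose in all 5 comparisons with no DEN liver, by 1.26, 1.73 and 1.11 in NT liver at 8, 14 and 20 weeks and by 2.03 and 1.52 in nodules. Its highest level in no DEN liver was 1.97 CPM and its lowest in DEN liver 2.15 CPM. Lgalsl, a galectin-like gene whose product lacks sugar binding, was not called at 8 weeks (-0.09, adjusted p = 0.476) and fell at 14 weeks (-0.52) and 20 weeks (-0.50) in NT liver. In nodules it fell by 0.70 and 1.04 on the log2 scale. Lgals7 reached at most 0.0879 CPM in any rat, and Lgals12 had no counts in any library, which allows up to 3 counts per library.

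Nodules were compared with the NT liver of the same rats to ask whether the family differs between tumor and surrounding liver. No member passed, and neither did any gene, 0% of 11466 genes tested at 14 weeks and 0% of 11546 at 20 weeks by edgeR's quasi-likelihood test without pairing. An unadjusted p under 0.05 was reached by 1348 and 2767 genes, among them 1 and 2 members, and DESeq2 called 26 and 881 genes. Lgals3 and Lgals3bp were higher in 8 of 8 nodules than in the NT liver of their own rat at both times. Lgals1 was higher in 6 of 8 nodules at 14 weeks and 7 of 8 at 20 weeks. Lgals9 was higher in 5 of 8 at 14 weeks and 1 of 8 at 20 weeks. The 8 nodules of a time came from 4 rats, and both nodules of a rat were set against the same NT library. They are thus not independent, and the share of all genes with such counts was not computed. At 20 weeks the unpaired differences were 0.65 for Lgals1 (SE 0.23, adjusted p = 0.145), 0.44 for Lgals3 (SE 0.21, adjusted p = 0.234) and 0.66 for Lgals3bp (SE 0.22, adjusted p = 0.129).

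With the rat as a replicate block, the added nodules of each rat were compared with the NT liver of that rat, with 4 rats at each time. In this paired fit 20-week nodules gave calls for Lgals1 (0.64, adjusted p = 0.0038) and Lgals3bp (0.66, adjusted p = 0.00014). Of the 11546 genes tested 1693 were called, in both directions together. Lgals3 had an adjusted p of 0.00186 in that paired fit, but its difference of 0.44 was below 0.5. At 14 weeks the paired fit called no gene, with differences of 0.58 for Lgals1 (adjusted p = 0.212), 0.50 for Lgals3 (adjusted p = 0.167) and 0.34 for Lgals3bp (adjusted p = 0.167). The unpaired difference of Lgals1 at 14 weeks was 0.62 (adjusted p = 0.443) with all rats and 0.34 (adjusted p = 0.532) without F06. Lgals9 differed by 0.02 and -0.20 between nodules and NT liver at 14 and 20 weeks in the unpaired fit (adjusted p = 0.95 and 0.32). In the paired fit it differed by 0.02 and -0.20 (adjusted p = 0.881 and 0.0607). Differences of this size are below 0.5 and could not be called whatever their p. The level of Lgals9 was thus lower in NT liver and in nodules, each against untreated rats, and a further difference between them was not called.

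**Figure D3:**
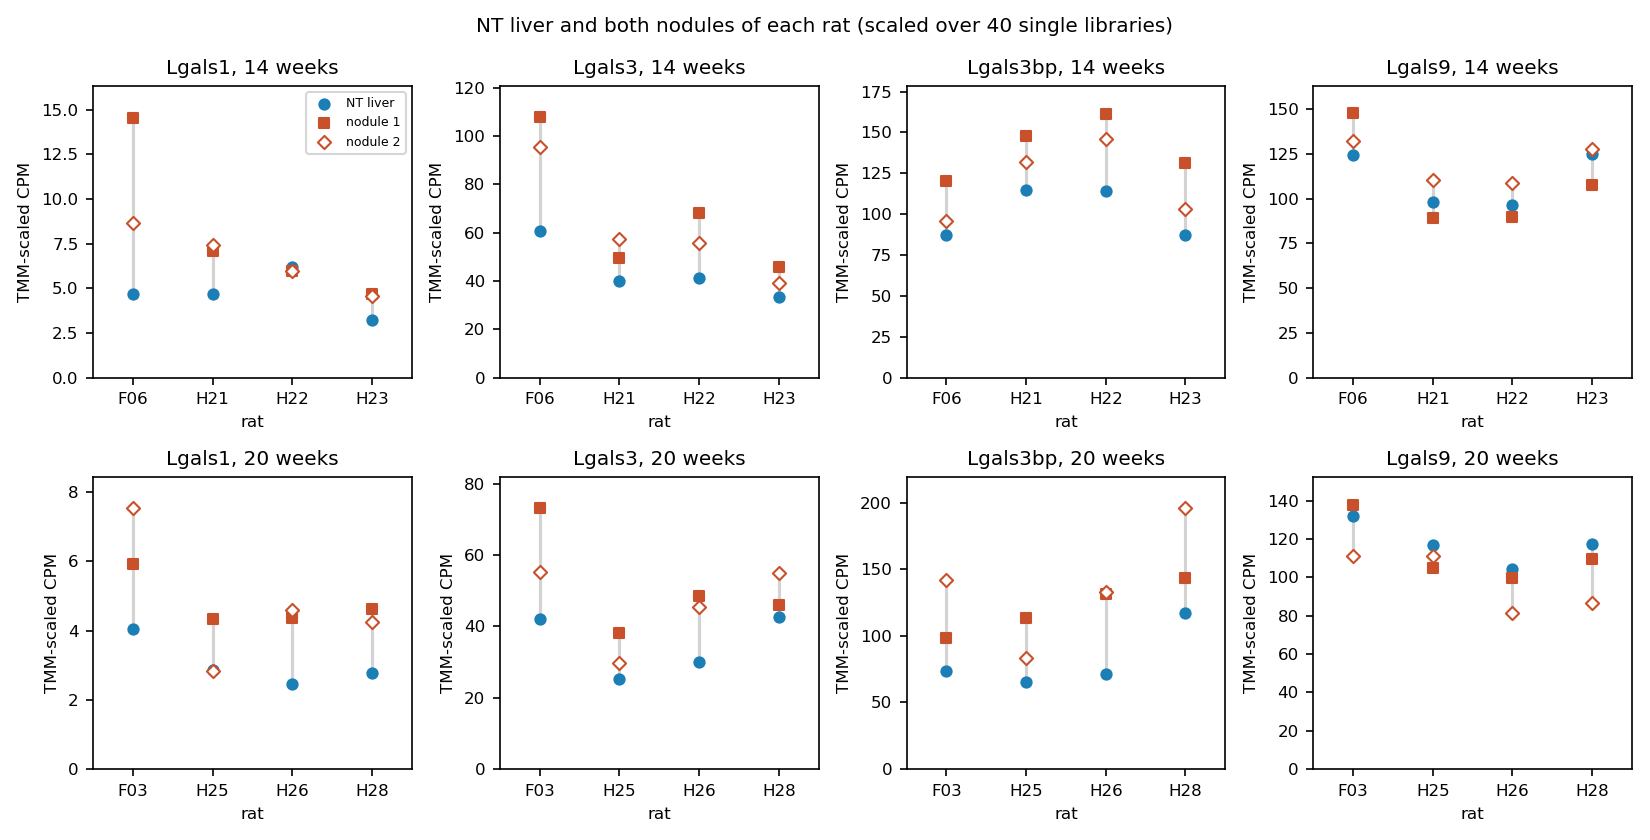
TMM-scaled CPM, scaled over the 40 single libraries (y axes, linear from 0), of 4 members in NT liver (blue) and in nodule 1 and nodule 2 (orange squares and open diamonds) of each rat at 14 and 20 weeks. For Lgals3 and Lgals3bp all 8 nodules of each time lay above the NT point of the same rat; for Lgals1 nodule 1 of F06 stood highest, at 14.6 CPM.

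The gap between both nodules of a rat varied by member. The higher nodule exceeded the lower by a median of 1.16-fold for Lgals3 and 1.19-fold for Lgals3bp at 14 weeks and by 1.24-fold and 1.36-fold at 20 weeks. The widest gap of Lgals1 was in F06, whose nodules held 14.6 and 8.67 CPM when scaled as single libraries, a ratio of 1.68. The library of nodule 1 of F06 held the fewest counted pairs of all 40 (20528515), the highest share of pairs not assigned to a gene (45.4%) and the second lowest share of Alb counts (11.7%), and the part of this in its Lgals1 and Lgals5 values was not tested. For Lgals9 the ratio stayed at or below 1.26 in all 8 rats. The nodules of F06 differed by 1.63-fold for Lgals8 (16.3 and 26.5 CPM), both below the 43.4 CPM of the NT liver of that rat.

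Untreated liver gave the background of age. Between 8 and 14 weeks and between 14 and 20 weeks of the no DEN series no member was called, as was no gene of 10486 and 10432 tested by edgeR (0% in both, with 1038 and 670 genes at an unadjusted p under 0.05 and 20 and 17 called by DESeq2). At 14 against 8 weeks 2 members had an unadjusted p under 0.05. Lgals3 was lower (-0.45, SE 0.16, adjusted p = 0.438) and Lgals9 higher (0.16, SE 0.07, adjusted p = 0.491), both without overlap between the 4 rats of each age. Neither here nor above was the share of all genes without overlap counted, so lack of overlap only describes the members.

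Levels of pairs of members over the 32 values of rat and tissue are given as a description, since values of a group share treatment and a rat can give several. Lgals1 and Lgals3 had a Pearson r of 0.92 over all values of log2 CPM and 0.65 after group means were subtracted. Lgals3bp and Lgals9 had -0.88 and -0.42. Lgals3 and Lgals8 had -0.25 over all values but -0.68 within groups (32 values). The latter leaned on the rats numbered F, which held both high Lgals3 and low Lgals8, beyond every other rat of the group in 4 of 5 DEN groups. Without them, a choice made after seeing the data, the within-group r was -0.34 for Lgals3 and Lgals8, 0.52 for Lgals1 and Lgals3 and -0.27 for Lgals3bp and Lgals9 (26 values). Other pairs shifted more, Lgals3 and Lgals3bp from 0.22 to 0.71, Lgals1 and Lgals9 from 0.09 to -0.46, Lgals3 and Lgals9 from 0.24 to -0.41, Lgals1 and Lgals8 from -0.41 to 0.17, Lgals3bp and Lgals8 from 0.16 to -0.37 and Lgals8 and Lgals9 from -0.67 to -0.29, so the within-group values depend on these few rats. Among 10066 genes with a mean of at least 1 CPM, the closest to Lgals3 were Cotl1 (r = 0.98, within groups 0.94), Arpc1b (0.97 and 0.91) and Vim (0.97 and 0.88), which encode an actin-binding protein, a subunit of the actin-branching complex and the filament protein vimentin. Those closest to Lgals1 were Cpz, Igfbp7 and Clec10a (r = 0.95 each, within groups 0.75, 0.68 and 0.70). Lgals3bp was closest to Npdc1, Rcn1 and the hyaluronan receptor Cd44 (r = 0.98 each, within groups 0.70, 0.78 and 0.76). Lgals9 was closest to Ethe1 (0.96, within groups 0.82), Mdh1 (0.95 and 0.76) and Cideb (0.94 and 0.77), genes of mitochondrial sulfide oxidation, the malate shuttle and lipid droplets. Lgals8 was closest to Paics (0.93), Dnm1l (0.92) and Noc3l (0.91), with within-group values of 0.94, 0.92 and 0.90. For these closest genes the within-group values were not recomputed without the rats numbered F.

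Galectin binding partners from a list of 18 glycoproteins and receptors, 17 of them in the table, moved in both directions. In NT liver 7 of 16 tested genes rose and 2 fell at 8 weeks, 7 of 16 rose and 3 fell at 14 weeks and 4 of 16 rose and 2 fell at 20 weeks. In nodules 8 of 17 rose and 3 fell at 14 weeks and 5 of 16 rose and 4 fell at 20 weeks. Over all genes, 16.5%, 22.8% and 14.3% were called higher and 5.21%, 9.85% and 3.82% lower in NT liver at the 3 times, and 23.9% and 23.6% higher and 15.2% lower at both times in nodules, so the counts in 20-week nodules were not far from these shares. Median log2 fold changes of the list were 0.19, 0.31 and 0.33 in NT liver and 0.31 and 0.19 in nodules, where the medians of all genes lay between -0.01 and 0.02. Cd44, which encodes the hyaluronan receptor, rose in all 5 comparisons, by 1.61, 2.40 and 1.66 in NT liver and by 2.73 and 2.66 in nodules. Havcr2, for the galectin-9 receptor TIM-3, was called higher at 8 weeks (1.21, adjusted p = 0.0157), in NT liver at 14 weeks (2.19, adjusted p = 0.000345) and in 14-week nodules (1.996, adjusted p = 0.00152), from a level of 0.0707 to 0.142 CPM in 14-week controls. A level of 3 counts is 0.0849 to 0.101 CPM in those control libraries. At 14 weeks Havcr2 thus passed the filter on low counts through DEN tissue, and its fitted changes rest on few control counts. Lag3, an inhibitory receptor of T cells that binds galectin-3, fell in 14-week NT liver (-1.18) and 20-week nodules (-1.25). Fn1, fibronectin, fell in 14-week nodules (-1.19), and Itga5, its integrin chain, fell in 20-week nodules (-1.26). Trem2, a lipid receptor of macrophages, was called in 14-week nodules, where it held 0.338 to 2.20 CPM against 0.0353 to 0.120 CPM in controls. It too passed the filter through the nodules, so its call, 1 of the 8 of 17 above, is partly set by the filter.

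Enzymes that build or mask galectin ligands were counted in the same way. Of 10 genes, none rose and 2 fell in 8-week NT liver, 3 rose and 3 fell at 14 weeks, 2 rose and 1 fell at 20 weeks, and 3 rose and 5 fell in nodules at each time. The count that rose in 14-week NT liver and in nodules was near the 22.8% to 23.9% of all genes called higher there, and 9.85% of all genes were called lower in 14-week NT liver and 15.2% in nodules. At 8 weeks 16.5% of all genes were called higher and 5.21% lower, and in 20-week NT liver 14.3% and 3.82%, beside counts of 2 genes or fewer in the list. The sialyltransferase genes St6gal1 and St3gal6, whose products can cap galactose, fell in 8-week NT liver (-0.53 and -0.60) and in 14-week nodules (-1.06 and -0.99). Those that rose were the branching enzyme Mgat4a (1.01 in 14-week NT liver, 1.06 in 14-week nodules), the lactosamine extender B3gnt2 (1.00 in 20-week NT liver, 1.28 in 20-week nodules) and the O-glycan branching enzyme Gcnt1 (1.60 in 20-week nodules). Mgat4b, a second branching enzyme of the same step, fell by 0.75 on the log2 scale in 14-week NT liver and by 1.01 in 14-week nodules. RNA levels do not measure the sugar chains themselves.

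Markers of other cell types were read beside these results, and their part in the galectin values was not tested. A gene low in no DEN liver could pass the filter on low counts through DEN tissue alone. Counts of tested genes that rose are therefore partly set by the filter. For each count the share of all genes called higher was 16.5%, 22.8% and 14.3% in NT liver at 8, 14 and 20 weeks and 23.9% and 23.6% in nodules, and the share called lower was 5.21%, 9.85% and 3.82%, then 15.2% in nodules at both times. The summed level of 7 cholangiocyte markers was 17.7 to 25.9 CPM over the 12 no DEN rats, 31.3 to 93.7 CPM in NT liver and 71.7 to 190.2 CPM in nodules, and 3 of 6 tested genes rose at 8 weeks and 6 of 6 in the other comparisons, Krt19 by 5.21 in 20-week nodules. Stellate cell and fibroblast markers summed to 169.7 to 257 CPM, 231 to 466 CPM and 261 to 468 CPM in the same order, with Col1a1 up by 2.63 in 14-week nodules and Col1a2 at 0 in all libraries. Of 7 tested genes of that list 6 rose at 8 weeks, 5 rose and 1 fell at 14 weeks and 3 rose at 20 weeks in NT liver, and 4 rose in nodules at each time. Macrophage markers overlapped between no DEN liver (320.4 to 989 CPM), NT liver (401 to 1011 CPM) and nodules (422 to 826 CPM). Of 9 genes 2 rose in NT liver at 8 and 14 weeks and in 14-week nodules, and 3 rose at 20 weeks in NT liver and in nodules, Gpnmb and Cd68 among them in all 5 comparisons.

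Endothelial markers summed to 123 to 257 CPM, 254 to 311 CPM and 244 to 332 CPM, with 5 of 8 up in each comparison, Cdh5 by 1.73 in 14-week NT liver. T cell markers summed to 4.21 to 7.07 CPM in no DEN liver, 7.09 to 17.5 CPM in NT liver and 7.78 to 16.7 CPM in nodules, and 8 of 8, 5 of 6 and 4 of 7 tested genes rose in NT liver at 8, 14 and 20 weeks and 6 and 5 of 8 in nodules. Only 3 of the 8 T cell genes passed the filter in comparisons of no DEN ages, so these counts are in part fixed by it. B cell markers (5 genes, 0.759 to 1.97 CPM in no DEN liver) reached 2.28 to 4.11 CPM in NT liver and 3.58 to 5.49 CPM in nodules, with 3 of 3 tested genes up at 8 weeks and 1 of 3, Blnk, in each of the other 4 comparisons. In no DEN liver 2 of them passed the filter for 14 against 8 weeks and 0 for 20 against 14 weeks, so the same limit holds. Neutrophil markers ranged from 0.927 to 4.81 CPM, 3.19 to 15.1 CPM and 2.40 to 24.4 CPM. Of those only S100a8 and S100a9 were tested, of which 2, 2 and 1 rose in NT liver and 1 and 0 in nodules, and Ltf, Camp, Mpo and Elane had no counts in at least 1 group. Erythroid markers ranged from 177 to 349 CPM, 101 to 470.4 CPM and 110 to 796 CPM, with Hba2 at 0 in 5 groups. In NT liver 2 of 7 tested genes rose at 8 weeks, 2 of 7 rose and 1 fell at 14 weeks and 1 of 6 fell at 20 weeks, and in nodules 2 of 7 rose at 14 weeks and 1 rose and 1 fell of 7 at 20 weeks, counts too small to set the list apart from all genes. Hepatocyte markers summed to 255793 to 304278 CPM in no DEN liver, 171267 to 267964 CPM in NT liver and 145452 to 208262 CPM in nodules. In NT liver 2 fell at 8 weeks, 4 fell and 1 rose at 14 weeks and 1 fell and 1 rose at 20 weeks, and 5 fell and 1 rose in 14-week nodules. In 20-week nodules 6 of 8 fell, Tat by 1.67 on the log2 scale, and 1 rose, Apoa1 by 1.31.

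Upstream DNA of the members was examined next, since Lgals3bp and Lgals9 are both known as interferon-responsive genes and went in opposite directions. The 250 bases before the gene start, from RefSeq on the GRCr8 assembly, were found for 5 of the 7 members. The core of the interferon response element (GAAA, then any 2 bases, then GAAA), searched on both strands, occurs in 3.41% of 33469 upstream windows of rat genes. It was in those of Lgals3bp, Lgals5 and Lgals9 and not in those of Lgals4 and Lgals8. Lgals1 and Lgals3 were not examined. The match of Lgals3bp is shown in capitals in its window, chr10:104127849-104128098 on the minus strand, starting 50 bases before the gene start:

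Lgals3bp: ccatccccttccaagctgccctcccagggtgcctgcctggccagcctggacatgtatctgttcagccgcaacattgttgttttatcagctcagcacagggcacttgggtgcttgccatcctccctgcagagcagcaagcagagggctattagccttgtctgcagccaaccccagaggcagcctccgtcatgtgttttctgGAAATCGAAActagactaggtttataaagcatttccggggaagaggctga

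The windows of Lgals5 (chr10:64355138-64355387, minus strand) and Lgals9 (chr10:64428071-64428320, minus strand) are shown together because they share blocks of sequence. Capitals mark 3 runs of at least 12 bases that both share, 155 of the 250 bases in all, the longest of 82 bases. In both the interferon core lies within the last shared run, 53 bases before the start of Lgals5 and 16 bases before that of Lgals9. An AP-1 letter pattern, TGANTCA, found in 6.34% of windows, occurred 40 bases before Lgals9 and not in the window of Lgals5.

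Lgals5: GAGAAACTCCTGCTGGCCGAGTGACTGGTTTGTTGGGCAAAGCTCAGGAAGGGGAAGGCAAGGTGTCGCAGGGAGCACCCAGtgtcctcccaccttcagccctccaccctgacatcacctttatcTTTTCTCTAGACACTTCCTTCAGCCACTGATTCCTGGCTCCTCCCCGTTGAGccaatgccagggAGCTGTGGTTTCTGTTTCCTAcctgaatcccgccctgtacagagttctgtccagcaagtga

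Lgals9: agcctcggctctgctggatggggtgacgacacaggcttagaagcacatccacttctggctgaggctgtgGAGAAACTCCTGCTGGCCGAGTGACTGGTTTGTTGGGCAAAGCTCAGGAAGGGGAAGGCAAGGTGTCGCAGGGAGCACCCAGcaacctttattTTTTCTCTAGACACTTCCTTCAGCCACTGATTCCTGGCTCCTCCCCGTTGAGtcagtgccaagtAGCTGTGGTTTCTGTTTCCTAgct

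A letter match describes the window and is no evidence of binding. Galectin-5 and galectin-9 are also known as closely related proteins, and pairs that aligned to several places were dropped before counting, 7.96% to 16.3% of pairs per library over all genes. The transcripts of both genes were not compared here, so whether this touched the counts of Lgals5 and Lgals9 was not tested.

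Interferon-stimulated genes were counted beside these matches. Of 15 listed genes 14 were tested. In NT liver 5 rose and none fell at 8 weeks, 4 rose and 2 fell at 14 weeks and 1 rose and 1 fell at 20 weeks, and in nodules 4 rose and 3 fell at 14 weeks and 2 rose and 1 fell at 20 weeks. From 14 weeks on the shares of all genes were 14.3% to 23.9% called higher and 3.82% to 15.2% lower, and with so few genes the list is not set apart from them, and at 8 weeks 16.5% of all genes were called higher and 5.21% lower. The median log2 fold changes were 0.21, 0.03 and -0.04 in NT liver and -0.04 and -0.02 in nodules. Gbp2, a guanylate-binding protein gene, rose by 1.04 and 1.52 in NT liver at 8 and 14 weeks and by 1.55 and 1.23 in nodules. Mx1, an antiviral GTPase gene, rose in all 5 comparisons by 0.58 to 1.05, while Oas1a fell in 14-week (-1.09) and 20-week (-1.07) nodules.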

How the data were processed

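Polyadenylated RNA of rat liver was sequenced in strand-specific pairs from 40 libraries of 24 rats. The raw counts per gene were deposited by the authors, who aligned to rn6 with STAR 2.7.1a and counted with HTSeq (reverse strand, intersection-strict, pairs with several alignments dropped); they named DESeq2 1.22.2 for their own testing. Summary lines of the counting held 32.8% to 45.4% of pairs per library and stayed out of library sizes and tests. Groups, weeks, nodule and rat came from the sample labels.

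Counts of both nodules of a rat were added. Genes were filtered with filterByExpr, scaled by TMM and tested in edgeR 4.0.16 (robust quasi-likelihood, R 4.3.3) using the groups compared, with Benjamini-Hochberg adjustment over all genes tested. A gene counted as called at an adjusted p up to 0.05 with a log2 fold change beyond ±0.5, and in interactions at that adjusted p alone. CPM of a rat was computed over the 32 rat and tissue values. Lgals4 was tested with exact two-sided permutation tests.

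Members and lists were chosen with earlier results of these data known. The text names every member, the other galectin genes found, per member the 3 genes with the highest Pearson r (log2 CPM, prior count 2, mean of at least 1 CPM), and of each list up to 4 called genes per comparison with the largest change. Values singled out in describing the marker lists follow the same rule, except marker genes at 0 and those named as called in every comparison.

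The labels give NT liver and nodules of 14 and 20 weeks the same rat number. Deviations from group means over 10066 genes correlated between NT liver and nodules of a rat by 0.388 to 0.65. Correlations between tissues of different rats were not computed, so the pairing rests on the labels. Alternatives were DESeq2 1.42.0, RLE scaling, no filter, a stricter threshold, all 8 groups in 1 fit, leaving out each rat, leaving out the rats numbered F, nodule 1 or 2 alone and the rat as block. Nothing says that libraries of a group were prepared separately, so p-values measure the spread between these rats.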

Additional observations from a re-analysis of the deposited data

Results flagged for a closer look

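Single rats stood apart in 7 of 56 combinations of member and group, where the gap of the highest or lowest rat to its neighbour exceeded Dixon's 95% critical value, and chance flags about 1 in 20 of them. The rate does not apply to the Lgals4 values among them, where a single count in 1 rat beside 3 rats at 0 fixes the gap. In no DEN liver of 8 weeks rat H05 was highest for both Lgals1 (1.85 CPM) and Lgals3 (30.2 CPM). In no DEN liver of 14 weeks rat H10 was highest for Lgals9 (192 CPM) and was the only rat with a count of Lgals4 (0.0400 CPM), and at 20 weeks H13 was the only control with a count of Lgals4 (0.0472 CPM). In 20-week NT liver H28 held 112 CPM of Lgals3bp. In 14-week nodules F06 held 1.41 CPM of Lgals5, beside the erythroid values given above.

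The effect of DEN on NT liver differed between 8 and 14 weeks, by the interaction test, for Lgals3bp (0.53), Lgals8 (0.60) and Lgals9 (-0.56). Lgals3bp was no longer called in 13 of 21 alternatives and Lgals8 in 12 of 21, among them fits without F09, F10, H06, H08, H10, H12, H21 or H22 for both, without H05, H09 or H11 for Lgals3bp and without H07 or H23 for Lgals8, with values down to 0.42 for either gene. Lgals9 was lost in 3 of 21.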

How the results depend on the processing

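Over 72 results of a single member in a comparison, 1040 of 1144 alternatives kept direction and call, 43 lost the call, 8 gained it and 53 changed sign, the last for uncalled values. With calls limited to a doubling and an adjusted p of 0.01 or less, 855, 1676 and 565 genes were called in NT liver at 8, 14 and 20 weeks and 2117 and 1946 in nodules, with 1 member left at 20 weeks in NT liver. Without the F rats 2 members were called there, and leaving out each rat gave 2 to 4. Nodules against NT liver gave 26 genes at 14 weeks by DESeq2. At 20 weeks DESeq2 gave 881 genes and 1 member, all 8 groups in 1 fit 1096 and 1, nodule 1 alone 218 genes, the replicate block 1693 genes and 2 members, and leaving out each rat 0 to 445, the latter without H25. In no DEN liver, 14 against 8 weeks gave 20 genes by DESeq2, 2 without a filter, 1 in the fit of all groups and 0 to 117 by leaving out each rat (117 without H07). The step to 20 weeks gave 17, 2 without a filter, and 0 to 2. The interaction from 8 to 14 weeks called 1522 genes by DESeq2, 151 and 0 members in the fit of all groups, 1 member without the F rats, and 533 (without H21) to 1870 genes (without H17) and 0 to 3 members by leaving out each rat. From 14 to 20 weeks NT liver gave 365 genes by DESeq2, 41 in the fit of all groups, 182 without the F rats and 31 (without H22) to 408 (without H26) by leaving out each rat. Nodules gave 29, 16, 5 with nodule 1 alone, and 6 to 15.

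Signs turned as follows, all in uncalled values, with ranges from leaving out each rat. Lgals5 was -0.11 at 8 weeks without the F rats. In 14-week nodules it was 0.0024 by DESeq2, 0.0012 without a filter and 0.23 with nodule 1 alone (range -1.02 to 0.25), and in 20-week nodules its range was -0.71 to 0.0208. Against NT liver it was -0.15 without the F rats (range -0.15 to 0.65) at 14 weeks and -0.12 with nodule 2 alone (range -0.0362 to 0.23) at 20 weeks. Its change from 14 to 20 weeks was 0.37 in NT liver (range -0.31 to 0.42) and 0.56 in nodules (range -0.71 to 0.64) without the F rats, and its ranges in no DEN liver were -0.0787 to 0.35 and -0.68 to 0.0667. Lgals8 was 0.0164 at 8 weeks without the F rats. In 20-week nodules it was 0.00036 in the fit of all groups, 0.0864 without the F rats and 0.11 with nodule 2 alone (range -0.0705 to 0.0864). It was 0.00013 in the fit of all groups for no DEN liver of 14 against 8 weeks (range -0.0714 to 0.0565), and 0.0236 with nodule 2 alone for the change in nodules. Lgals9 in 14-week nodules against NT liver was -0.0218 without the F rats and -0.0205 with nodule 1 alone (range -0.0218 to 0.0695). It was 0.0492 with nodule 1 alone for the change in nodules, with ranges of -0.00741 to 0.13 for the change in NT liver from 14 to 20 weeks and -0.0264 to 0.0865 between 14 and 20 weeks of no DEN liver. Lgals3bp was -0.12 with nodule 1 alone for the change in nodules (range -0.0674 to 0.21). Lgals1 ranged from -0.0245 to 0.35 in no DEN liver of 14 against 8 weeks. Lgals3 ranged from -0.0339 to 0.34 in that of 20 against 14 weeks and from -0.00828 to 0.27 in the change from 8 to 14 weeks. The CPM difference of Lgals4 was -0.0118 in 14-week nodules against NT liver without the F rats (range -0.0118 to 0.132), and its range was -0.0175 to 0.106 at 20 weeks, -0.0211 to 0.00993 in 8-week NT liver and -0.010 to 0.0118 between 14 and 20 weeks of no DEN liver. The cause of these shifts was not tested. The block changed no other call of a member, and RLE scaling moved the 56 group means by less than 1 SD. Counts were lowest for Lgals4 (0 to 22) and Lgals5 (4 to 82), and depth was not varied.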

Other observations

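Rats numbered F, 4 of the 12 DEN rats and none of the 12 no DEN rats, differed from the other rats of their groups in several members. The labels do not say what the letter means. Lgals8 was lower in the F rats than in every other rat of the group in 5 of 5 DEN groups, from 24.7 and 26.4 CPM against 32.3 and 38.1 CPM in 8-week NT liver to 21.1 CPM against 40.2 to 45.4 CPM in 14-week nodules. Lgals1, Lgals3 and Lgals9 were higher in the F rats than in every other rat in 4 of 5 groups each. For Lgals3 this was 60.05 and 60.1 CPM against 37.9 and 47.5 CPM at 8 weeks, and 97.8 CPM against 41.3 to 59.4 CPM in 14-week nodules. The summed level of macrophage markers was also higher in the F rats than in every other rat in 5 of 5 DEN groups, with 908 and 936 CPM against 810 and 827 CPM in 8-week NT liver, 1011 CPM against 401 to 511 CPM in 14-week NT liver, 826 CPM against 422 to 526 CPM in 14-week nodules, 903 CPM against 462 to 604 CPM in 20-week NT liver and 609 CPM against 484 to 537 CPM in 20-week nodules. Erythroid markers were highest in the F rats in 4 of 5 groups, all but 20-week NT liver. The part of these cells in the galectin values of the F rats was not tested. No control carries the letter, so in these rats the letter and DEN cannot be told apart. Without them the log2 fold change of Lgals3 was 0.98 (edgeR adjusted p = 0.0119) in 8-week NT liver and 1.66 (adjusted p = 9.15e-07) in 14-week nodules, and that of Lgals9 in 14-week NT liver was -0.77 (adjusted p = 2.89e-05). Lgals8 without them was 0.31 (adjusted p = 0.00928) in 14-week nodules, still below the size needed for a call.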
